A study of Mus musculus with 10 samples.

Results

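The 10 genes described here encode enzymes of triglyceride synthesis and of glycerol-3-phosphate metabolism: *Gpd1* and *Gpd2*, *Gpam*, *Agpat2* and *Agpat3*, *Lpin1* and *Lpin2*, *Mogat1*, and *Dgat1* and *Dgat2*. They were taken by symbol from a table of 27267 genes measured in interscapular brown adipose tissue (iBAT), and all 10 were found. RNA-seq was run on 10 libraries, 5 from wild-type (WT) mice and 5 from mice with a global deletion of *Mgp* (*Mgp*-KO), the gene of matrix Gla protein, a secreted inhibitor of bone morphogenetic proteins. Both groups were C57BL/6, labelled male, 4 weeks old and fed chow, and the knock-out was present in every tissue of the animal, so that whole tissue was compared and not adipocytes alone. Values are normalized counts, that is, reads per gene divided by a size factor of the library, and libraries are named WT1 to WT5 and KO1 to KO5 after their labels. *Mgp*-KO stands throughout for the libraries so labelled.

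Triglycerides are built on glycerol-3-phosphate, which adipocytes obtain from glycolysis through glycerol-3-phosphate dehydrogenase, from glyceroneogenesis and, in brown fat, from free glycerol. Acyl chains are added first by glycerol-3-phosphate acyltransferases and then by acylglycerol-phosphate acyltransferases, the phosphate is removed by lipins, and a last acyl chain is added by diacylglycerol acyltransferases. A shorter route starts from monoacylglycerol. In brown fat the stored lipid is the fuel of heat production, and the droplets are renewed continuously.

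Several libraries stood apart. Replicates 1 to 3 of both genotypes held 19616366 to 22252260 reads on genes with 0.771 to 1.72% of them on mitochondrial ribosomal RNA, whereas replicates 4 and 5 held 9253793 to 13281873 reads with 6.50 to 16.7%; the labels do not say what sets them apart. *Mgp* itself was listed at 466 to 1146 normalized counts in WT and at 0 to 0.821 in KO1 to KO3, but at 500 in KO4 and 331 in KO5, which goes against the label of these libraries. *Xist* was listed at 5094 in WT2 and at 44.0 or less elsewhere, against the male label. Fold changes of the members are therefore also given within replicates 1 to 3, within replicates 4 and 5, and for all 5 WT libraries against KO1 to KO3. Brown adipocyte markers were detected in every library, with *Ucp1* at 38421 to 116019 normalized counts in WT and at 2201 to 15641 in *Mgp*-KO.

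Sequences just upstream of the annotated start are shown for *Agpat2*, *Gpam* and *Lpin1*. These are the 3 members with a RefSeq start that was also the GENCODE start, and they were not chosen by their levels. Each is the 250 bases before the start from RefSeq (GRCm38.p6, minus strand, written 5′ to 3′). *Agpat2* lies at chr2:26604418-26604667, *Gpam* at chr19:55127239-55127488 and *Lpin1* at chr12:16610967-16611216, and capitals mark the only motif match, a CCAAT box on the opposite strand, in *Gpam*.
Agpat2: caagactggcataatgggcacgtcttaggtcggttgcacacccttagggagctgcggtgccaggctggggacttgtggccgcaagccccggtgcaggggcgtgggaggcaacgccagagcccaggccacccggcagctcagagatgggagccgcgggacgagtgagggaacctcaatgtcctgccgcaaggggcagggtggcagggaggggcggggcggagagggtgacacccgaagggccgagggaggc
Gpam: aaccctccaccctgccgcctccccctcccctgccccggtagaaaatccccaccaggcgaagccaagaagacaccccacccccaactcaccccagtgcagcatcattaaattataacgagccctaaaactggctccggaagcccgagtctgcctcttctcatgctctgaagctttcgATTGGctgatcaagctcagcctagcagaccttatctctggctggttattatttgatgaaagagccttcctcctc
Lpin1: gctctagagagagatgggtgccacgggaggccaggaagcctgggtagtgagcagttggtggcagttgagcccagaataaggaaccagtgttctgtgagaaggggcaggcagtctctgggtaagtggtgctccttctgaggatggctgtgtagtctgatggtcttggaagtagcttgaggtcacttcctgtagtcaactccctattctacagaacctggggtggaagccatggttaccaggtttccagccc
The G and C share was 69.2% in *Agpat2* and 54.8% in both *Gpam* and *Lpin1*. The set of RefSeq promoters used here held 11 such windows for 7 of the 10 members. Both strands were searched for CACGTG (an E-box, found in 6.02% of all 32851 windows), TCACNCCAC (the core of a sterol response element, 1.05%) and CCAAT (the box bound by NF-Y, 33.8%). CCAAT was found for 2 members, *Gpam* at 74 to 70 bases before the start and *Lpin2*, and CACGTG for 1, *Lpin2*. TCACNCCAC was not found in the 11 windows, which says only that these letters do not occur there.

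Across the 10 enzymes the prevailing difference was a lower level in the *Mgp*-KO libraries. *Agpat2* (4.67-fold), *Gpd1* (2.18-fold), *Gpd2* (1.93-fold) and *Dgat1* (1.55-fold) were lower in each *Mgp*-KO library than in each WT library; such a separation was seen in 2.11% of all genes tested and in no member in the upward direction. Within replicates 1 to 3 and again within replicates 4 and 5, *Gpam*, *Agpat3* and *Mogat1* joined them, so that 7 of the 10 were lower without overlap in both sets, against 6.31% of all genes. In whole tissue, fewer cells of a type and less RNA per cell cannot be told apart in these levels. *Lpin1* was the one enzyme with a higher mean on the log2 scale. The median log2 fold change of the 10 was -0.85 against 0.03 over all 13714 genes tested, and 9 of 10 were negative. No member passed an adjusted p of 0.05 when all 10 libraries were compared by limma with no further term, a comparison in which 0.0656% of genes passed, and 6 of 10 had an unadjusted p under 0.05, against 10.4% of all genes. edgeR with no further term also called 0 of 10, beside 0.0219% of genes. With a term for the replicate set, *Agpat2*, *Gpd2* and *Mogat1* fell, 3 of 10 against 1.54% of genes. Without KO4 and KO5 the same 3 passed, beside 0.955% of genes, in a comparison that sets WT libraries of both sets against replicates 1 to 3 of *Mgp*-KO, so that genotype and set were not balanced. Replicates 4 and 5 were higher than replicates 1 to 3 by 2.43 for *Mogat1* and by 1.07 for *Agpat2* (adjusted p = 0.0799 by limma). Within replicates 1 to 3 *Gpd1* passed as well, 4 of 10 beside 1.71%. No gene at all passed within replicates 4 and 5, where 4 members (*Gpam*, *Agpat2*, *Mogat1* and *Dgat1*) had an unadjusted p under 0.05, beside 6.36% of genes.

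The calls depended on single libraries. With the set term, which called 324 genes over all libraries, none of the 10 passed without WT2, where 62 genes were called (adjusted p of 0.0589 for *Agpat2*, 0.0550 for *Gpd2* and 0.0502 for *Mogat1* by limma) or without WT3, where 56 were called (0.0646, 0.0587 and 0.0636). Their fold changes were -2.41, -0.95 and -3.01 without WT2 and -2.36, -0.91 and -2.76 without WT3. Without WT5, where 142 genes were called, *Gpd2* alone passed, at 0.0425, with *Agpat2* at 0.0554 and *Mogat1* at 0.0502. Without KO4 there were 5 that passed, since *Gpd1* (0.0219) and *Dgat1* (0.0424) were added, in a fit that called 2.69% of all genes lower. Within replicates 1 to 3, where 234 genes were lower and 271 higher, none passed when WT1, WT2 or WT3 was left out, where 123, 35 and 133 genes were called. *Gpd2* alone passed there without KO1 (0.0496) or KO3 (0.0487), where 130 and 199 genes were called. Without KO2, where 870 genes were called, the same 4 were lower and *Lpin1* was higher (0.0493). With no further term, *Gpd2* and *Mogat1* passed only without KO4, where 93 genes were called, against 9 over all libraries. On whole reads recovered from the table, DESeq2 with default parameters called *Agpat2*, *Gpd1* and *Gpd2* lower, 3 of 10 beside 1.39% of genes. With the set term DESeq2 called 6 lower, adding *Mogat1*, *Dgat1* and *Gpam*, beside 3.76% of genes, and 1 higher, *Lpin1*, beside 3.31%.

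**Figure D1:**
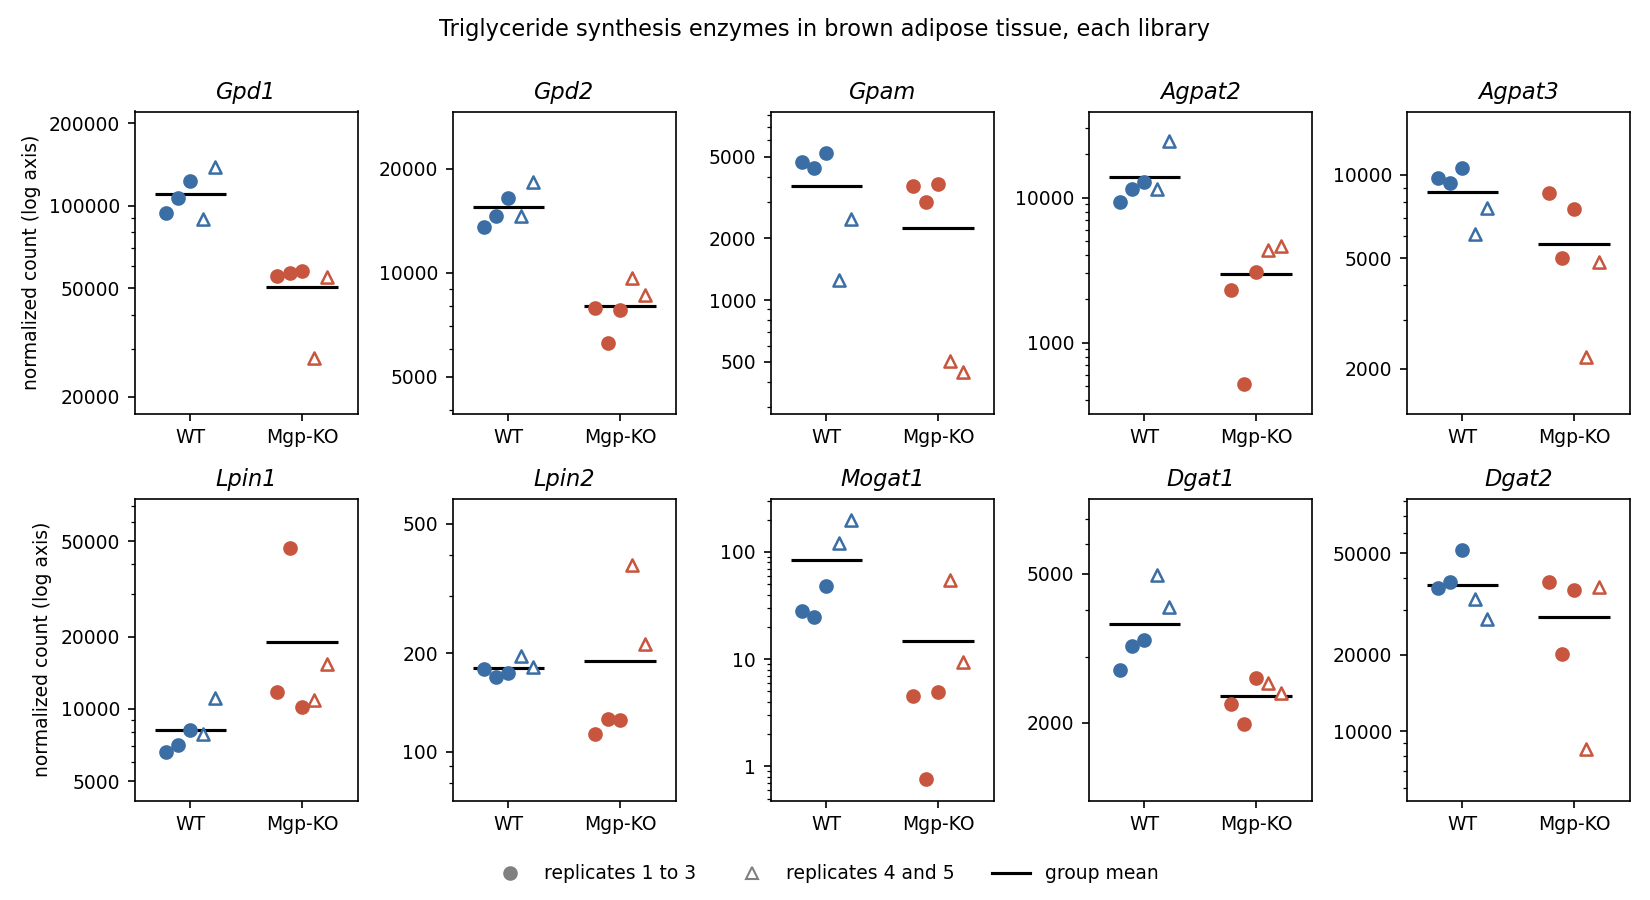
Normalized counts of the 10 enzymes on a log axis, with 1 point per library (5 WT, 5 *Mgp*-KO), filled circles for replicates 1 to 3, open triangles for replicates 4 and 5, and a line at the arithmetic mean. The groups do not overlap for *Gpd1*, *Gpd2*, *Agpat2* and *Dgat1*, *Gpam* separates by replicate set first, and KO2 lies far above the other libraries for *Lpin1* at 46983.

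The metabolism of glycerol-3-phosphate was represented by *Gpd1* and *Gpd2*. The cytosolic dehydrogenase *Gpd1* reduces dihydroxyacetone phosphate to glycerol-3-phosphate. Its mitochondrial partner *Gpd2* oxidizes glycerol-3-phosphate, and so consumes it, and passes the electrons to the respiratory chain. *Gpd1* (chr15:99717515-99725005, plus strand) was listed at 93811, 106888, 123345, 89116 and 137964 normalized counts in WT1 to WT5 and at 55391, 56842, 57827, 27802 and 54660 in KO1 to KO5. Every *Mgp*-KO library lay below every WT library, and KO4 lay far below the other 4. The means were 110225 ± 20419 (SD, n = 5) and 50505 ± 12751 (SD, n = 5), a log2 fold change of -1.16 (SE 0.30, adjusted p = 0.172 by limma). The same fold change had an adjusted p of 0.0583 with the set term, and within replicates 1 to 3, where *Mgp*-KO libraries held 56687 on average against 108015, *Gpd1* fell by 0.92 on the log2 scale with an adjusted p of 0.0391. Replicates 4 and 5 gave -1.51 (adjusted p = 0.675 by limma), and the 5 WT libraries against KO1 to KO3 gave -0.94 (adjusted p = 0.0679). DESeq2 with default parameters gave an adjusted p of 0.000726.

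*Gpd2* (chr2:57237635-57370719, plus strand) was listed at 13560, 14635, 16417, 14616 and 18337 in WT and at 7896, 6245, 7779, 9659 and 8594 in *Mgp*-KO. The groups were again fully apart, and of the 10 members this was the one that passed in the most settings, 10 of the 28 tried. The log2 fold change was -0.96 (SE 0.19, 95% confidence interval -1.38 to -0.53), with an adjusted p of 0.0741 in limma without and 0.0160 with the set term. Replicates 1 to 3 alone gave -1.03 and replicates 4 and 5 alone -0.85, with a difference between the sets of 0.18 (SE 0.31, adjusted p = 0.823 by limma). Without KO4 and KO5 the fold change was -1.09 (adjusted p = 0.0188 by limma).

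The first acylation is carried out by glycerol-3-phosphate acyltransferases, of which *Gpam* encodes the form in the outer mitochondrial membrane. *Gpam* (chr19:55067268-55127238, minus strand) was listed at 4731, 4390, 5191, 1259 and 2485 normalized counts in WT1 to WT5 and at 3611, 3010, 3689, 503 and 447 in KO1 to KO5. The replicate set separated the libraries more than the genotype: replicates 4 and 5 differed from replicates 1 to 3 by -2.14 on the log2 scale (SE 0.28, adjusted p = 0.000264 by limma), and within each set every *Mgp*-KO library was below every WT library. The log2 fold change was -1.04 (95% confidence interval -2.51 to 0.42, adjusted p = 0.633) without the set term and had an adjusted p of 0.0715 with it. It was -0.64 without KO4 and -0.60 without KO5, and ran from -1.38 to -0.60 over all single libraries left out. Replicates 1 to 3 gave -0.48 and replicates 4 and 5 gave -1.90, and the difference between these changes, -1.42 (SE 0.37), had an unadjusted p of 0.00333 and an adjusted p of 0.455 by limma. Against all 5 WT libraries KO1 to KO3 gave 0.10, the opposite sign, in a comparison where the WT group held both sets and the *Mgp*-KO group only replicates 1 to 3.

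*Gpam* was not the most abundant enzyme of this step. Per kb of exon, *Gpat4*, which encodes an acyltransferase of the endoplasmic reticulum, made up 56.6 to 86.6% of the 4 acyltransferases in WT and 65.0 to 84.3% in *Mgp*-KO, and *Gpam* 10.8 to 40.6% and 8.62 to 32.8%. *Gpat4* was listed at 6136 to 10162 in WT and at 3393 to 8780 in *Mgp*-KO, and its log2 fold change was -0.36 (SE 0.29, adjusted p = 0.722 by limma). In replicates 1 to 3 its change was 0.15. In replicates 4 and 5 it was -1.12 (adjusted p = 0.675 by limma), with both *Mgp*-KO libraries below both WT libraries. The sets differed by -1.27 (unadjusted p = 0.00468, adjusted p = 0.455 by limma), and the change over all libraries was -0.16 without KO4 and -0.23 without KO5. *Gpat3* was listed at 156 to 351 in WT and at 66.4 to 351 in *Mgp*-KO (-0.71, SE 0.43, adjusted p = 0.603), and *Gpat2* at 0 in 8 libraries.

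The second acylation converts lysophosphatidate into phosphatidate. *Agpat2*, whose loss causes generalized lipodystrophy in people and mice, was the member of this step with the larger fall. *Agpat2* (chr2:26593057-26604417, minus strand) was listed at 9358, 11386, 12760, 11543 and 24532 in WT1 to WT5 and at 2321, 517, 3088, 4327 and 4640 in KO1 to KO5. The groups did not overlap, KO2 was the lowest library and WT5 the highest. The means were 13916 ± 6059 (SD, n = 5) and 2979 ± 1664 (SD, n = 5), and the log2 fold change was -2.47 (SE 0.54, 95% confidence interval -3.63 to -1.30). By limma the adjusted p was 0.0968 with no further term, 0.0183 with the set term and 0.0452 within replicates 1 to 3. DESeq2 with default parameters gave an adjusted p of 0.000645. In replicates 1 to 3 the change was -2.84 and in replicates 4 and 5 it was -1.91, and the difference between the sets, 0.93 (SE 0.89), had an adjusted p of 0.680. Without KO2 the change was smaller, at -1.92 over all libraries and -2.05 within replicates 1 to 3. Against KO1 to KO3 alone, the 5 WT libraries gave -3.08 (adjusted p = 0.0253 by limma). The annotated exons of *Agpat2* share 64 bases with the endothelial gene *Egfl7* on the opposite strand, and the strand setting of the counting is not given in the sources used here. *Egfl7* was listed at 689 to 1709 in WT and at 1252 to 4486 in *Mgp*-KO, a log2 fold change of 0.65.

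*Agpat3* (chr10:78269178-78352489, minus strand), a broadly expressed relative with the same reaction, was listed at 9743, 9312, 10587, 6105 and 7576 in WT and at 8606, 5007, 7526, 2198 and 4833 in *Mgp*-KO. Its groups overlapped over all libraries but not within either set. The log2 fold change was -0.74 (SE 0.34, adjusted p = 0.486 by limma, 0.131 with the set term), and replicates 4 and 5 were lower than replicates 1 to 3 (-0.81, adjusted p = 0.0232 by limma). The fold change was -0.52 in replicates 1 to 3, -1.06 in replicates 4 and 5, -0.43 without KO4 alone and -0.31 without KO4 and KO5. None of these passed, and DESeq2 with a replicate block was the one setting in which *Agpat3* did (adjusted p = 0.0102). *Agpat1*, the other well-studied enzyme of the step, was listed at 1412 to 2171 in WT and at 665 to 2163 in *Mgp*-KO, and its log2 fold change was -0.38 (SE 0.31, adjusted p = 0.721). Without KO4 it was -0.12, and in replicates 1 to 3 it was -0.17. Per kb of exon, *Agpat2* made up 69.0 to 88.3% of the 5 *Agpat* genes in WT. In the libraries KO1 to KO5 its share was 37.0, 17.3, 45.6, 77.4 and 66.7%, so KO4 and KO5 were near or within the WT range and KO1 to KO3 well below it.

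Phosphatidate is dephosphorylated by lipins, which are also found in the nucleus as coactivators of transcription. *Lpin1* (chr12:16535669-16610966, minus strand), the main lipin of adipose tissue and muscle, was listed at 6642, 7079, 8187, 7893 and 11094 in WT1 to WT5 and at 11798, 46983, 10156, 10857 and 15382 in KO1 to KO5. All *Mgp*-KO libraries but KO3 and KO4 exceeded the highest WT library, WT5, and KO2 stood far above the rest. The *Mgp*-KO mean was 2.33 times the WT mean with KO2 and 1.47 times without it. The log2 fold change was 0.96 (SE 0.39, adjusted p = 0.412 by limma, 0.203 with the set term), and it was 0.56 without KO2. Within replicates 1 to 3 it was 1.29 (adjusted p = 0.204), and without KO2 it was 0.59 with an adjusted p of 0.0493. Replicates 4 and 5 gave 0.47, and the 5 WT libraries against KO1 to KO3 gave 1.14, neither past the threshold. DESeq2 with the set term gave an adjusted p of 0.0447. KO2 also had a high summed level of 7 skeletal muscle markers, 36408 normalized counts, as did KO5 at 35107, against 354 to 6969 in the other 8 libraries. The part of muscle RNA in the *Lpin1* level was not tested.

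*Lpin2* (chr17:71182560-71249817, plus strand), a lipin with high levels in liver, was low in all libraries. It was listed at 179, 169, 174, 196 and 182 in WT and at 113, 126, 125, 374 and 213 in *Mgp*-KO. KO1 to KO3 lay below every WT library and KO4 and KO5 above every one, so the log2 fold change over all libraries was -0.08 (95% confidence interval -0.74 to 0.58, adjusted p = 0.958 by limma). Replicates 1 to 3 alone gave -0.52 (adjusted p = 0.0826 by limma) and replicates 4 and 5 alone 0.58 (adjusted p = 0.688). Without KO4 and KO5 the fold change was -0.57 (adjusted p = 0.108). The difference between the sets was 1.10 (SE 0.34, unadjusted p = 0.00865) and did not pass over all genes (adjusted p = 0.455 by limma). *Lpin1* made up 94.4 to 97.2% of the 3 lipins per kb of exon in WT and 94.3 to 98.9% in *Mgp*-KO.

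*Mogat1* (chr1:78510991-78538173, plus strand), which acylates monoacylglycerol on the shorter route, was measured at low counts. Its normalized counts were 27.9, 24.7, 47.8, 120 and 197 in WT1 to WT5 and 4.52, 0.765, 4.93, 55.0 and 9.38 in KO1 to KO5. Within each set all *Mgp*-KO libraries were below all WT libraries, while KO4 lay above WT1 to WT3. The values of KO1 to KO3 rested on 6, 1 and 6 reads, against 39, 33 and 65 in WT1 to WT3. The log2 fold change was -2.93 (SE 0.86, adjusted p = 0.225 by limma), with an adjusted p of 0.0165 with the set term and 0.0299 within replicates 1 to 3, where it was -3.10. It was -2.68 in replicates 4 and 5 (adjusted p = 0.675) and -3.99 without KO4 and KO5 (adjusted p = 0.0288), where the higher WT4 and WT5 stayed in the WT group. Over single libraries left out the fold change ran from -3.63 without KO4 to -2.39 without KO2. With a pseudocount of 10 it was -1.89, less than the -2.46 of *Agpat2*, so both its size and its rank among the members depended on the treatment of low counts. Replicates 4 and 5 were higher than replicates 1 to 3 by 2.43 on the log2 scale (adjusted p = 0.00384 by limma). *Mogat1* exons share 200 annotated bases with another gene on the opposite strand. Such an overlap was also annotated for *Gpd1* (384 bases), *Gpd2* (487 bases) and *Agpat3* (16 bases). Without a known strand setting, reads from these bases cannot be told apart.

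The final acylation was represented by *Dgat1*, an enzyme of the endoplasmic reticulum, and *Dgat2*, an unrelated enzyme also found on lipid droplets. *Dgat1* (chr15:76502015-76511953, minus strand) was listed at 2758, 3206, 3318, 4962 and 4070 in WT and at 2238, 1983, 2633, 2550 and 2397 in *Mgp*-KO. The groups did not overlap, though WT1 and KO3 were close. The means were 3663 ± 866 (SD, n = 5) and 2360 ± 259 (SD, n = 5), a log2 fold change of -0.61 (SE 0.19, 95% confidence interval -1.03 to -0.19). The adjusted p was 0.265 by limma, 0.0559 with the set term and 0.132 within replicates 1 to 3. The change was -0.44 there, -0.86 in replicates 4 and 5 and -0.66 without KO4 and KO5, and none of these passed. DESeq2 gave 0.0543 with default parameters and 0.00210 with the set term.

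*Dgat2* (chr7:99153658-99182719, minus strand) was listed at 36585, 38667, 51310, 33212 and 27663 in WT and at 38706, 20030, 36037, 8541 and 36743 in *Mgp*-KO. The groups overlapped over all libraries and within both sets, and the low *Mgp*-KO mean came from KO2 and KO4. The log2 fold change was -0.59 (95% confidence interval -1.48 to 0.31, adjusted p = 0.666 by limma), and it was -0.21 without KO4. It was -0.46 in replicates 1 to 3, -0.77 in replicates 4 and 5 and -0.27 without KO4 and KO5. *Dgat2* passed in none of the 28 settings tried. Per kb of exon it made up 86.9 to 93.9% of *Dgat1* and *Dgat2* in WT and 76.9 to 94.5% in *Mgp*-KO, the lowest share being that of KO4.

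**Figure D2:**
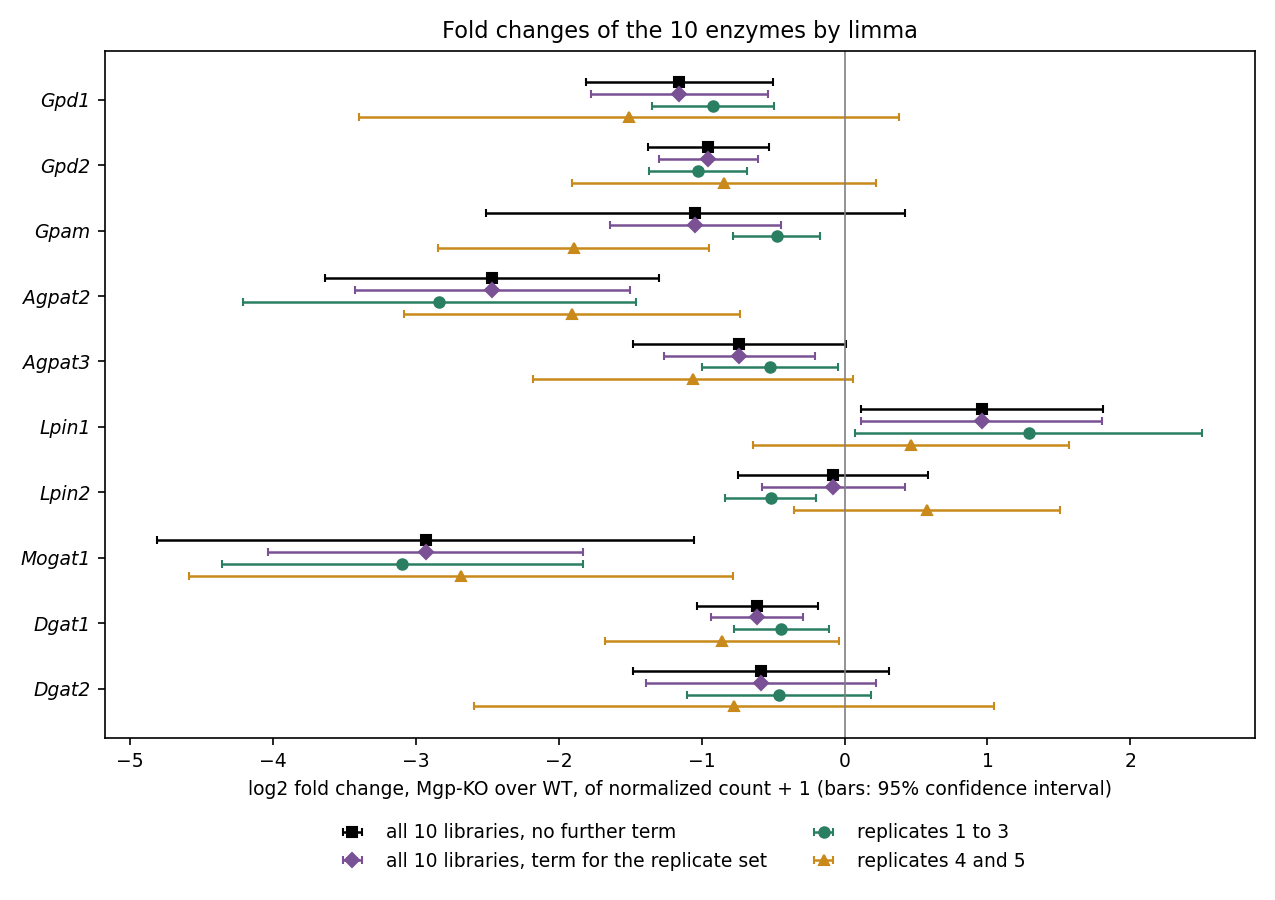
Log2 fold change of normalized count + 1 in *Mgp*-KO over WT for the 10 enzymes with 95% confidence intervals by limma, over all 10 libraries without or with a term for the replicate set, within replicates 1 to 3 (3 against 3) and within replicates 4 and 5 (2 against 2). *Agpat2* at -2.47 and *Mogat1* at -2.93 lie farthest to the left, *Lpin1* at 0.96 is to the right, and *Lpin2* changes side between the sets.

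Whether related enzymes differed in their change was asked with the log2 ratio of their normalized counts in each library. The p-values of the 5 ratios were adjusted together. *Gpd1* to *Gpd2* sets opposed reactions against each other, and the other ratios compare enzymes of 1 step. *Agpat2* to *Agpat3* was -0.06, 0.29, 0.27, 0.92 and 1.70 in WT1 to WT5 and -1.89, -3.27, -1.28, 0.98 and -0.06 in KO1 to KO5. KO1 to KO3 lay below all other libraries and KO4 within the WT range. The groups differed by -1.73 (two-sided exact permutation test, p = 0.0714, adjusted p = 0.258), by -2.32 within replicates 1 to 3 and by -0.85 within replicates 4 and 5. Single libraries left out gave -2.25 to -1.19, and leaving out KO4 was the one case that passed (-2.25, exact permutation adjusted p = 0.0198), with KO5 and WT1 both at -0.06. *Lpin1* to *Lpin2* was 5.21 to 5.92 in WT and 4.86 to 8.53 in *Mgp*-KO, a difference of 1.04 (exact permutation p = 0.103, adjusted p = 0.258). KO4 had the lowest ratio of the 10 libraries. Within replicates 4 and 5 the difference was -0.11, the opposite sign, against 1.81 within replicates 1 to 3. Single libraries left out gave 0.54 to 1.45, and leaving out KO4 was again the one case that passed (1.45, exact permutation adjusted p = 0.0198). *Dgat2* to *Dgat1* was 2.74 to 3.95 in WT and 1.74 to 4.11 in *Mgp*-KO, with a difference of 0.02 (exact permutation p = 0.976). *Gpd1* to *Gpd2* differed by -0.20 (exact permutation p = 0.730) and *Gpam* to *Gpat4* by -0.69 (exact permutation p = 0.278), the latter from -1.13 without WT4 to -0.37 without KO5. The smallest p that 5 against 5 libraries allow is 0.00794.

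**Figure D3:**
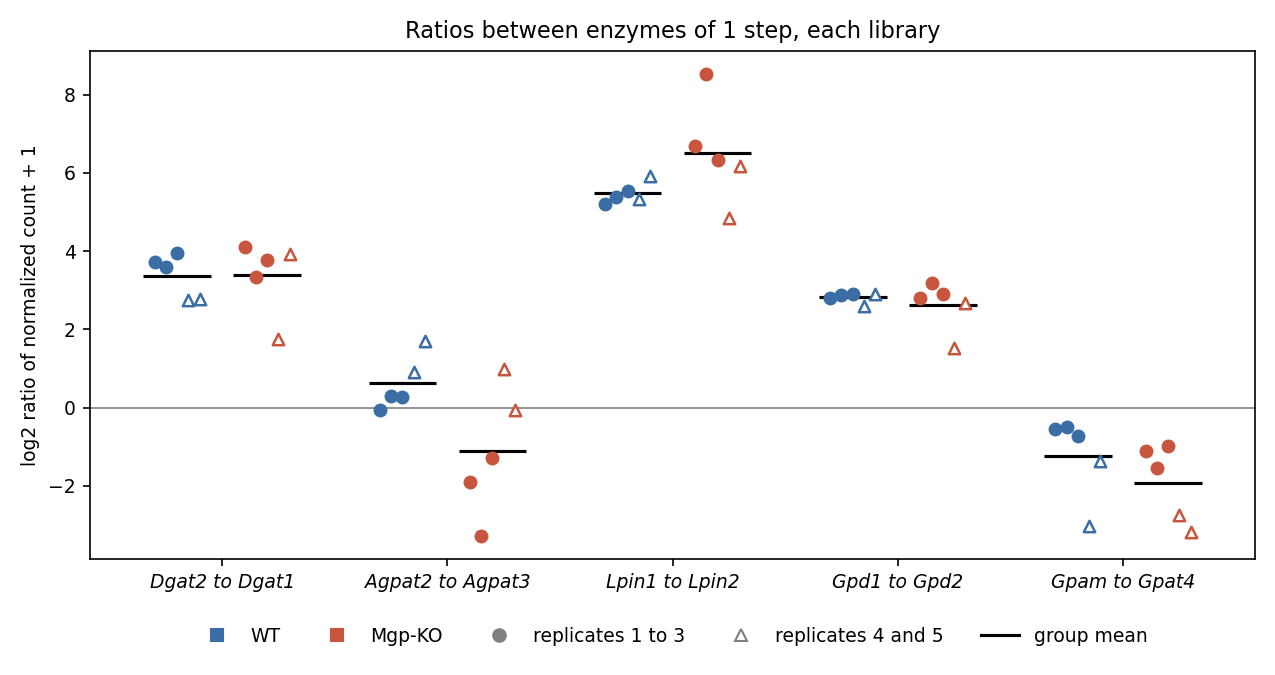
Log2 ratio of the normalized counts (+ 1) of enzymes of 1 step and of the opposed *Gpd1* and *Gpd2*, 1 point per library, with WT in blue and *Mgp*-KO in red, filled circles for replicates 1 to 3, open triangles for replicates 4 and 5 and a line at the mean. For *Agpat2* to *Agpat3*, KO1 to KO3 lie from -3.27 to -1.28, below all WT libraries, and KO4 at 0.98 lies among them.

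Levels of different genes were compared only per kb of annotated exon (GENCODE M21). In WT the order of the mean levels was *Gpd1* (37226 ± 6896 normalized counts per kb, SD, n = 5), *Dgat2* (12159 ± 2847), *Agpat2* (6533 ± 2845), *Gpd2* (2369 ± 288), *Dgat1* (1199 ± 283), *Agpat3* (1112 ± 232), *Lpin1* (846 ± 180), *Gpam* (542 ± 251), *Mogat1* (53.6 ± 47.7) and *Lpin2* (14.7 ± 0.841). The ranges of neighbours overlapped for *Dgat2* and *Agpat2*, *Dgat1* and *Agpat3*, *Agpat3* and *Lpin1*, *Lpin1* and *Gpam*, and *Mogat1* and *Lpin2*. Within libraries, *Mogat1* was above *Lpin2* in all 5 WT libraries, *Dgat2* above *Agpat2* and *Lpin1* above *Gpam* in 4 of 5, *Agpat3* above *Lpin1* in 3 and *Dgat1* above *Agpat3* in 2, so the order of these last pairs is not firm. In *Mgp*-KO the mean of *Agpat2* was 1398 ± 781 (SD, n = 5) and that of *Lpin1* 1969 ± 1630 (SD, n = 5) per kb, the latter with 4861 in KO2.

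**Figure D4:**
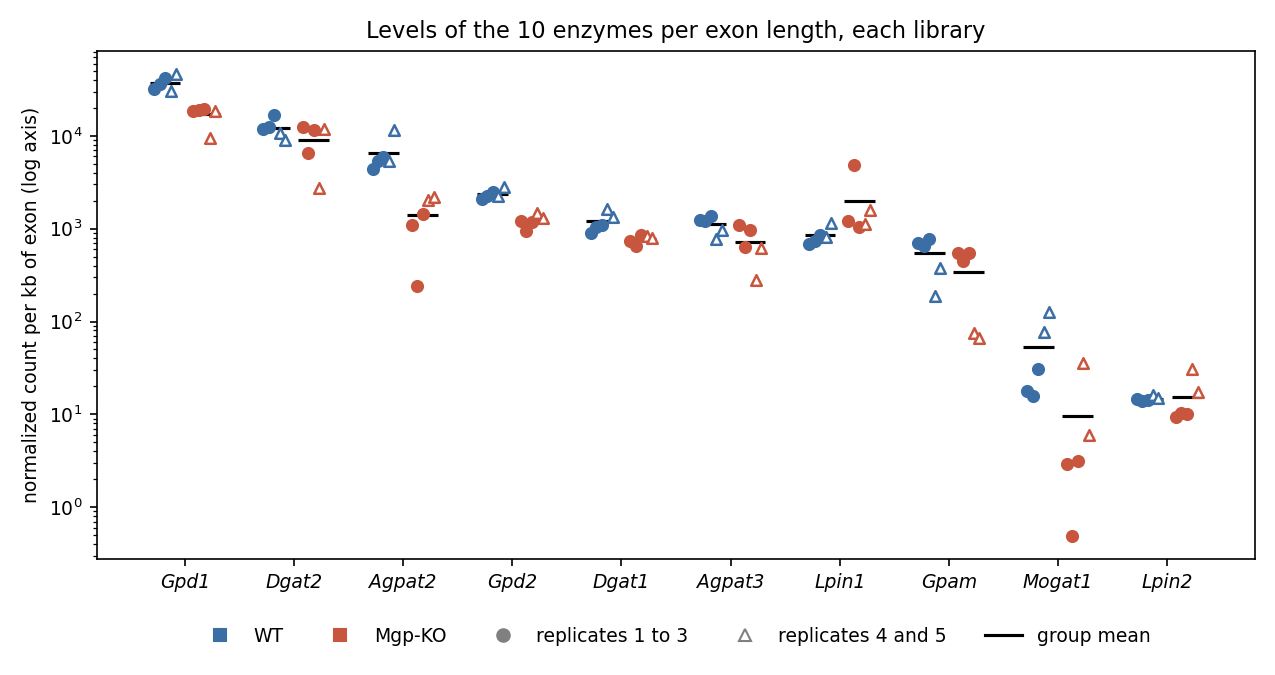
Normalized counts per kb of exon on a log axis for the 10 enzymes, ordered by the WT mean, 1 point per library with WT in blue and *Mgp*-KO in red, filled circles for replicates 1 to 3, open triangles for replicates 4 and 5 and a line at the arithmetic mean. WT levels run from 37226 for *Gpd1* to 14.7 for *Lpin2*.

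The nearest patterns over the 10 libraries were sought for *Gpam* and *Dgat2* as the genes with the smallest root mean square difference in centred log2 normalized count + 1. For *Gpam*, whose root mean square deviation from its own mean was 1.24, these were *Ankrd52* (0.38), *Alg10b* (0.42), *Adamts12* (0.42), *Hspa9-ps1* (0.43) and *Dusp4* (0.45). For *Dgat2*, with a deviation of 0.69, they were *Amacr* (0.20), *Mrpl34* (0.21), *Cd59b* (0.23), *4930480K23Rik* (0.23) and *Hadh* (0.23). None is a member. Of the members *Agpat3* was nearest to both, at 0.79 for *Gpam* and 0.30 for *Dgat2*. These are descriptions over libraries that share genotype, set and depth.

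Beyond the 10 members, 23 genes of the same pathway were followed, of which 20 had enough counts to be tested. None passed in limma without or with the set term, 4 and 6 of the 20 had an unadjusted p under 0.05, against 10.4 and 19.3% of all genes, and the median log2 fold change was -0.15. With the set term and KO4 left out, 2 of the 20 were called lower, beside 2.69% of all genes. *Pck1*, the key enzyme of glyceroneogenesis, was lower in every *Mgp*-KO library (13781 to 35304) than in every WT library (41018 to 54039), with a log2 fold change of -0.89 (SE 0.29, adjusted p = 0.290 by limma). *Bscl2*, which encodes seipin, a protein of droplet formation, was likewise apart, at 1248 to 2168 against 2449 to 3276 (-0.65, SE 0.19, adjusted p = 0.225). *Gk*, which encodes glycerol kinase, overlapped, with 451 to 4388 in WT and 425 to 816 in *Mgp*-KO (-1.19, SE 0.54, adjusted p = 0.482). WT4 (3038) and WT5 (4388) were its highest libraries, and the change was -0.77 without WT5 and -1.59 without WT3. In replicates 1 to 3 it was -0.51, with overlap, against -2.21 in replicates 4 and 5, where the groups were apart. DESeq2 with the set term called these 3 of the 23 lower, with adjusted p of 0.00707, 0.00490 and 0.00808, beside 3.76% of all genes, and gave *Gpat2* no adjusted p. With default parameters it called 1 of the 23 lower, *Bscl2* (adjusted p = 0.0456), beside 1.39%.

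Of 10 brown adipocyte markers, *Ucp1*, *Dio2* and *Elovl3* fell with the set term in limma, beside 1.54% of all genes, and none passed with no further term. The summed level of the 10 was 212731 to 410747 in WT and 149352 to 300425 in *Mgp*-KO. The median log2 fold change of the list was -0.40, from -3.64 for *Elovl3*, a fatty acid elongase, to 0.10 for *Pparg*, the adipogenic nuclear receptor, and that of *Fabp4*, the fatty acid carrier, was -0.13. In KO4, which had the lowest *Gpd1*, *Agpat3* and *Dgat2* of all libraries, the summed level of the 10 brown adipocyte markers was 209279, the lowest of replicates 4 and 5 (300425 in KO5, 407968 in WT4 and 410747 in WT5), while KO1 to KO3 held 149352 to 185159 and WT1 to WT3 212731 to 228227. Of the 10 markers, 6 were at their lowest of replicates 4 and 5 in KO4: *Ucp1* (12319), *Cidea* (19856), *Adipoq* (4675), *Plin1* (3048), *Fabp4* (149140) and *Pparg* (2174). The other 4 were not. *Dio2* (1739 against 293) and *Elovl3* (139 against 29.3) were higher in KO4 than in KO5, *Ppargc1a* (1808) was above KO5 (757) and WT5 (734), and *Cox8b* (14381) was above WT5 (13795). The sums for endothelial (38603), adipose progenitor (13719) and erythroid (89393) markers were the highest of all libraries in KO4. The progenitor sum was carried by *Dcn* (9156) and *Ly6a* (2757), and *Pdgfra* (172) and *Dpp4* (6.48) were at their lowest there. No other list had a gene past the threshold in limma. The part of tissue composition in the members' levels was not tested.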

How the data were processed

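Total RNA from iBAT was sequenced by the authors as single reads of 50 bases, mapped to mm10 with STAR and counted per gene, and the deposited signal is the gene count divided by a size factor per library from DESeq2; the annotation release and strand setting are not given in the sources used here. Every value was a whole multiple of 1 read (100% within 0.01 reads), so whole reads were recovered. The floor of 3 reads equals 2.15 to 5.19 normalized counts, which covers counting error only.

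Normalized counts were compared with limma 3.58.1 (R 4.3.3, empirical Bayes with trend) on log2(normalized count + 1) after leaving out genes whose mean was under 10 (13714 stayed), two-sided, with Benjamini-Hochberg adjustment over all genes tested and a threshold of 0.05. Fold changes are on that scale and understate those of low genes. Alternatives were a term for the replicate set (1 to 3 against 4 and 5), each set alone, edgeR 4.0.16 (quasi-likelihood) and DESeq2 1.42.0 on recovered reads, other pseudocounts, filters and scalings, and each library left out. Log2 ratios were tested by exact permutation. On simulated data (13714 genes, sets that differ) with a log2 change of 2 in 200 genes, limma recovered 82.0% without and 98.0% with the set term. It called 0 and 7 unchanged genes there. With sets alike it recovered 99.0 and 99.5%, with 2 and 4 such calls. No simulated library stood apart and the change was equal in both sets, so these rates cannot be carried over to the real libraries. The study's methods describe 5 pairs of mice without saying what a pair shares. The members and lists were chosen with earlier results of these data known. All members, the pathway genes *Gpat3*, *Gpat4*, *Agpat1*, *Pck1*, *Gk* and *Bscl2* and any that passed in limma over all libraries, *Mgp*, *Xist*, and the 5 genes nearest to *Gpam* and *Dgat2* were to be named. Marker lists covered brown and white adipocytes, skeletal muscle, endothelial, myeloid, adipose progenitor and erythroid cells. Gene coordinates are from GENCODE M21 (mm10), with exon overlaps from the same annotation.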

Additional observations from a re-analysis of the deposited data

Results flagged for a closer look

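*Gpd1* in KO4 stood apart from its group, with a gap of 0.923 of the group's range on the log2 scale (27802 normalized counts against 54660 to 57827), and so did *Lpin1* in KO2, with a gap of 0.729 (46983 against 10156 to 15382). These gaps exceed Dixon's 95% critical value for 5 samples, 42 groups were examined, and chance alone marks about 1 in 20 groups. *Lpin2* differed between replicate sets: KO1 to KO3 were all below WT1 to WT3 and KO4 and KO5 were above WT4 and WT5, a difference of 1.10 between the log2 fold changes, with an unadjusted p of 0.00865 and an adjusted p of 0.455 by limma.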

How the results depend on the processing

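Counts of members past the threshold were 0 in limma with no further term. Lower members numbered 3 with a set term, 3 for 5 WT against KO1 to KO3, 4 within replicates 1 to 3, 4 in edgeR with the set term, and in DESeq2 3 with default parameters and 6 (and 1 higher) with the set term. Leaving out single libraries gave 0 to 2. The same with the set term gave 0 to 5, and within replicates 1 to 3 it gave 0 to 4 (and 0 to 1 higher), both chosen after seeing the data. All genes past the threshold ran from 56 to 678 and from 35 to 870 in the same fits. Genes past the threshold, 9 in all, numbered 29 with a pseudocount of 10, 1 with no filter, 15 with a mean of at least 50, 324 with the set term, 505 within replicates 1 to 3, 0 within replicates 4 and 5, 267 for 5 WT against KO1 to KO3, 25 with equal upper quartiles, 34 with quantile normalization, 3 in edgeR, 341 in edgeR with the set term, and 386 and 1135 in DESeq2 without and with it; single libraries left out gave 0 to 93. Deviations of same-numbered libraries correlated at 0.527, 0.0559, 0.327, 0.523 and 0.514, with a mean of 0.390 against 0.416 for other numbers of the same set. Since number 2 was near 0 and the labels name nothing shared, the numbers were not taken as pairs, and only numbers 4 and 5 matched best with themselves. The replicate block gave 3 lower members and 270 genes in limma, 3 and 222 in edgeR, and 7 (with 1 higher) and 913 in DESeq2.

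Log2 fold changes changed sign for *Gpam* (0.095), *Gpat4* (0.078) and *Agpat1* (0.053) in 5 WT against KO1 to KO3, for *Gpat4* within replicates 1 to 3 (0.15), and for *Lpin2* within replicates 4 and 5 (0.58), in edgeR (0.066) and in DESeq2 (0.071), and from -0.36 to 0.067 with single libraries left out. In 5 WT against KO1 to KO3 the ratios *Agpat2* to *Agpat3* (-2.77) and *Lpin1* to *Lpin2* (1.71) passed, and *Gpd1* to *Gpd2* (0.15) and *Gpam* to *Gpat4* (0.018) changed sign. So did *Dgat2* to *Dgat1* (-0.017) and *Gpd1* to *Gpd2* (0.11) within replicates 1 to 3 and *Lpin1* to *Lpin2* within replicates 4 and 5 (-0.11). With single libraries left out, these ratios ran from -2.25 to -1.19 for *Agpat2* to *Agpat3*, from -0.16 to 0.43 for *Dgat2* to *Dgat1*, from -0.34 to 0.072 for *Gpd1* to *Gpd2* and from 0.54 to 1.45 for *Lpin1* to *Lpin2*. The cause of these differences was not tested. *Mogat1* rested on 1 to 6 reads in KO1 to KO3.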

Other observations

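Among the other genes of the pathway, *Lclat1*, which encodes a lysophospholipid acyltransferase, was lower in every *Mgp*-KO library (230 to 480 normalized counts) than in every WT library (487 to 590), with a log2 fold change of -0.54 and an adjusted p of 0.367 by limma. It was chosen after its values were seen. *Aqp7*, the glycerol channel of adipocytes, was listed at 2220 to 4507 in WT and at 2728 to 4503 in *Mgp*-KO (0.04, adjusted p = 0.969). *Plpp1*, a lipid phosphatase of the cell surface, was at 243 to 601 in WT and at 259 to 1462 in *Mgp*-KO, with the highest level in KO4 (0.55, adjusted p = 0.723). *Mogat2*, *Fitm1* and *Gpat2* had too few counts to be tested.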
